A study of Mus musculus with 8 samples.

Results

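The B-lineage genes Pax5, Bach2, Ebf1, Foxo1, Tcf4, Cd79a, Cd79b and Cd22 were followed through ATAC-seq, which marks open chromatin by where a transposase can cut DNA, in AML246 mouse acute myeloid leukaemia cells. A region belonged to one of these genes when the gene's span was the nearest of any protein-coding gene and lay within 100 kb. That rule gave 63 regions of 68800 in all, and of 64638 that had such a gene. The 8 genes were unequally covered, with 23 regions at Tcf4, 16 at Foxo1, 13 at Bach2, 4 each at Pax5 and Ebf1, 3 at Cd22 and 0 at Cd79a and Cd79b.

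The labels call the time on doxycycline (Dox, 0.1 µg/mL) PU.1 restoration and the time after its withdrawal PU.1 knockdown. All cells were grown in medium with IL-3 and isolated by flow sorting. The groups were total viable cells before Dox (day 0), on days 4, 8 and 12 of Dox, and 4, 8 and 12 days after its withdrawal (called days off). A further group held the CD11b-high viable cells sorted at day 12 on Dox. Each group was 1 library of one cell line, so there is no replicate error, no test between libraries was possible, and each comparison describes these libraries. What makes PU.1 depend on Dox in these cells was not analysed here.

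The authors deposited peak summits called separately for each library, each with a score that was read as −log10 of p or of q. Open means here that at least 1 of a library's summits fell in the region. A region without one was not called, which does not show closed chromatin. Lists held 31957 (12 days off) to 51175 (4 days off) summits, and read depth was not analysed here. Scores and list lengths move with depth, so libraries are compared by the relative score, the score divided by that library's median over the regions open in all 8. These medians lay between 15.6 at day 12 and 31.8 at 4 days off. Intervals in brackets are exact Clopper-Pearson 95% intervals and cover counting error only. In bulk cells, fewer cells with an open site and less opening per cell cannot be told apart.

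B cells are built by a small circuit of transcription factors. Tcf4 (E2-2) and the other E proteins, Foxo1 and Ebf1 act early, Ebf1 and Foxo1 support each other's expression, and Pax5 then holds the B-cell fate and represses genes of other lineages. Bach2 is a repressor that restrains the myeloid programme in lymphoid progenitors and plasma cell differentiation in mature B cells. Cd79a and Cd79b encode the signalling chains of the B-cell receptor, and Cd22 encodes an inhibitory co-receptor. PU.1 serves both lineages, and high PU.1 favours macrophages over B cells. Foxo1 and Tcf4 are also expressed outside the B lineage, Tcf4 most of all in plasmacytoid dendritic cells.

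The RefSeq promoter windows (GRCm38.p6, the build also called mm10; 250 bases before and 50 after a start) matched 6 of the 8 genes, without Cd79b and Tcf4. Sequences of 4 are shown because they carry the contrast between an open promoter and those with no summit. Capitals mark GAGGAA or AGGAAGT, short forms of the site of PU.1 and other ETS factors, and CCCNNGGG, the core of the EBF site, on either strand. The windows are Foxo1 at chr3:52268087-52268386 (plus strand), Cd79a at chr7:24897247-24897546 (plus strand), Cd22 at chr7:30878979-30879278 (minus strand) and Pax5 at chr4:44710645-44710944 (minus strand), each written 5′ to 3′ along the gene.
Foxo1: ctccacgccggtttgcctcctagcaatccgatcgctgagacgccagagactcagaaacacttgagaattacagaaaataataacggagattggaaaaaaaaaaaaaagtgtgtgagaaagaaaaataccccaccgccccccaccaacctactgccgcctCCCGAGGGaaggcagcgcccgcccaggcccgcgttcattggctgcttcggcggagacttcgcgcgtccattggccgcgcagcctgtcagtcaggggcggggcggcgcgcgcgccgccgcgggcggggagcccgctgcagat
Cd79a: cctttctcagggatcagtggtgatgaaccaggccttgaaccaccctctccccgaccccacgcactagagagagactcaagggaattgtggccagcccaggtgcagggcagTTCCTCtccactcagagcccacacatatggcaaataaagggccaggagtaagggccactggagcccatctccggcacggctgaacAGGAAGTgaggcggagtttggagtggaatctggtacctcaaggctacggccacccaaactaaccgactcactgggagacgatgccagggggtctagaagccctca
Cd22: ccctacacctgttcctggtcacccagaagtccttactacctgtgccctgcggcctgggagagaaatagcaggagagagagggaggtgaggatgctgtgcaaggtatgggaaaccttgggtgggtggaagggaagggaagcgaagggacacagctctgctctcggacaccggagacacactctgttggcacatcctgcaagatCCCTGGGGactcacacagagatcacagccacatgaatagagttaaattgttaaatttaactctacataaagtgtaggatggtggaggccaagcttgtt
Pax5: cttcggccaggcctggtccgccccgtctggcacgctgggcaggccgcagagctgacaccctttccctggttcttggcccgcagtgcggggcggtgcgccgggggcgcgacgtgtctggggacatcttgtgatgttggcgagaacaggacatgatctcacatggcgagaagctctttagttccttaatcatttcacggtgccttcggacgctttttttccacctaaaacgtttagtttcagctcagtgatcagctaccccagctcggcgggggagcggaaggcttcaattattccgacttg

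The Foxo1 window was the only one of these genes' windows that a region overlapped. Its nearest summit lay 8 to 46 bp from the start site in all 8 libraries. Of all 32851 promoter windows in the table, 28.6% were overlapped by regions open in all 8 libraries and 37.3% by a region open in any. The Cd79a window had no summit closer than 5402 bp to its start, the Cd22 window none closer than 5717 bp and the Pax5 window none closer than 6084 bp. The Cd79a window held GAGGAA once and AGGAAGT once, and these occur in 28.3% and 9.35% of all windows. The Foxo1 and Cd22 windows each held CCCNNGGG once, which 13.7% of all windows hold. The E-box letters CANNTG were found in the windows of Foxo1, Cd79a, Cd22 and Pax5 and in 1 of the 2 Ebf1 windows, against 72.3% of all. The second Ebf1 window (start site at chromosome 11, 44620228) also held GAGGAA. The first Ebf1 window and that of Bach2 held none of the 6 motifs searched. TGTTTAC (forkhead, in 3.65% of all windows) and TGANTCA (AP-1 and BACH, in 7.81%) were in none of the windows of these genes. A match is a run of letters only, and no binding was measured.

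The question of the time course was which of these regions PU.1 restoration opens or closes, and which come back under renewed knockdown. Over the restoration, 2 of the 63 regions were gained (not open at day 0, open at day 4, 8 and 12) and 8 were lost (open at day 0, open at none of day 4, 8 and 12). That is 3.17% (0.387 to 11.002) gained, against 4.86% of all assigned regions, and 12.7% (5.65 to 23.5) lost, against 5.49%. Lost regions were thus the more frequent kind near these genes, with an interval that begins close to the share of all regions. Another 17 were open at all 4 times, 27.0% (16.6 to 39.7) against 32.5%. Of the 8 lost regions, 4 lay at Bach2 and 1 each at Pax5, Ebf1, Tcf4 and Cd22, while Foxo1 had 0. Those of Tcf4 and Cd22 had a summit of a later restoration list within 1 kb (358 and 692 bp away), which leaves 6. At a score of at least 10 there were 3 lost, 1 each at Bach2, Foxo1 and Tcf4, and 1 gained, at Bach2. Of these 3 only the Bach2 region was among the 8, since the lost Tcf4 region scored 7.70 at day 0. The 2 gained regions without a score limit were both at Tcf4. Of the 8 lost regions, 4, 5 and 3 were open after 4, 8 and 12 days off, while 48.7%, 45.0% and 25.5% of all lost assigned regions were. Over all 63, 26 were open on day 12, 41.3% (29.0 to 54.4) against 49.9% of assigned regions, and 41 on day 0, 65.1% (52.0 to 76.7) against 52.1%. At 12 days off 3 regions were open that were not at day 0, 4.76% (0.993 to 13.3) against 7.02%, and 2 of these lay at Bach2, on chromosome 4, where 9.69% of regions did so. In the other direction, 18 were open at day 0 and not at 12 days off, 28.6% (17.9 to 41.3) against 13.1%. Open at day 0 and not at day 12 were 19, 30.2% (19.2 to 43.0) against 15.7%. Both of these intervals lie above the share of all assigned regions.

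Most calls near these genes scored low in their lists. In 7 of the libraries the median member call stood between the 29.1st and the 39.9th percentile of its own list, and at 4 days off at the 55.4th, where assigned regions in general had medians of 50.2 to 51.0. Within 1 kb of a gene end lay 11.1% (4.59 to 21.6) against 22.8% of assigned regions. Only 11 of the 63 were open in all 8 libraries, 17.5% (9.05 to 29.1) against 27.9%, and 13 were open in a single one, 20.6% (11.47 to 32.7) against 23.1%. The part of low scores in the counts of gained and lost regions was not tested. Several ratios of relative scores given below rest on a low call, and are ranked against regions of any score.

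**Figure D1:**
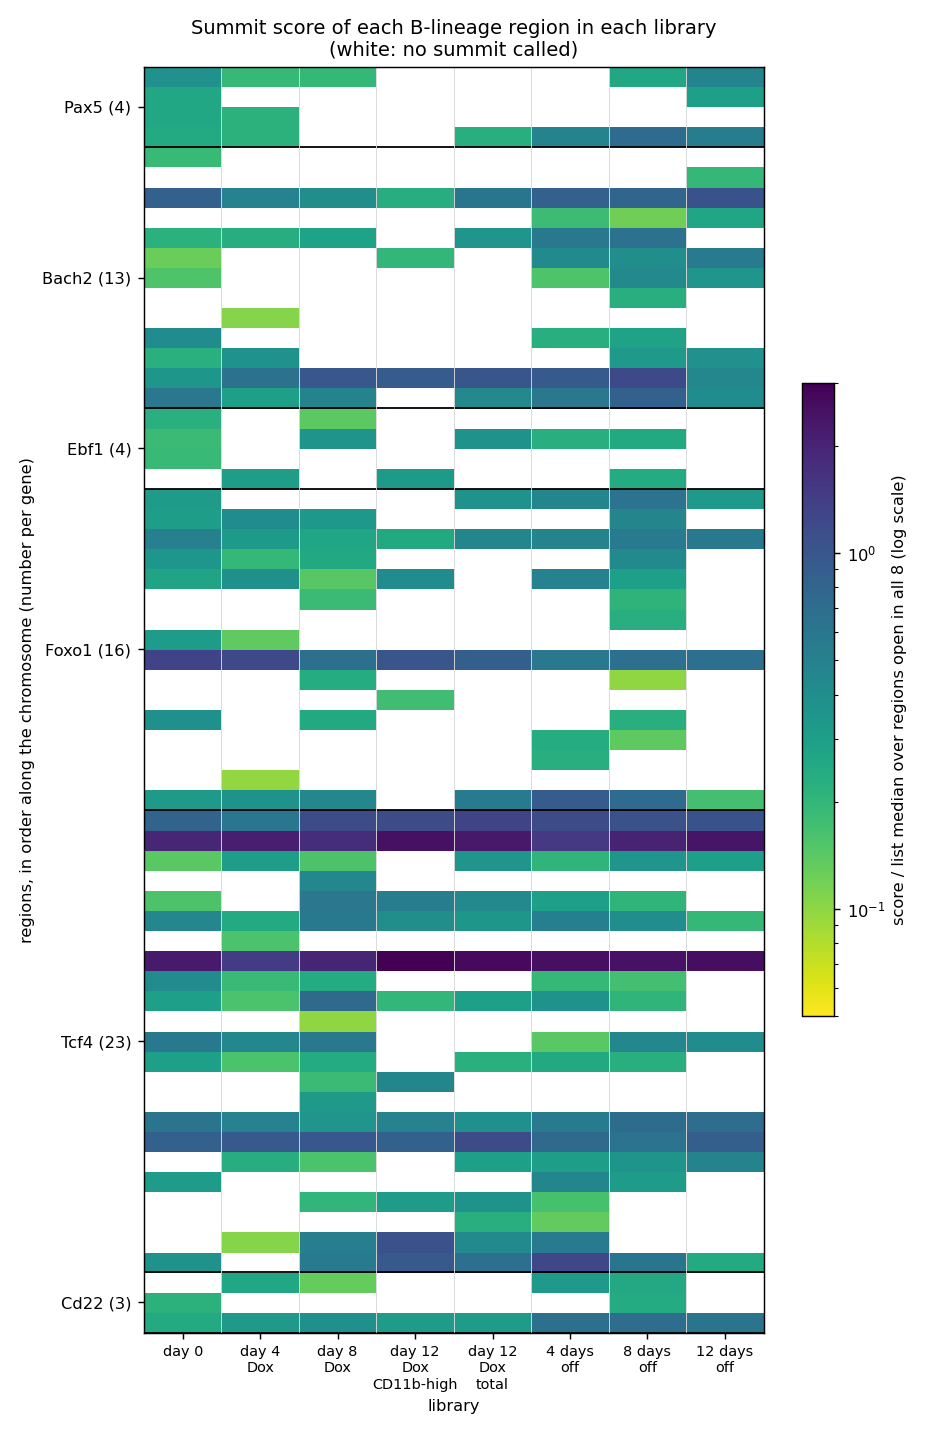
Relative score (colour, log scale) of the 63 regions, 1 per row in order along the chromosome, in the 8 libraries, with white where no summit was called. The Pax5 and Bach2 rows are mostly white at day 8 and day 12 and in part coloured again off Dox, while 2 Tcf4 rows stay dark in every library.

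Pax5 and Bach2 lie on chromosome 4, whose scores stood higher off Dox, and are given apart. Over the 1253 chromosome 4 regions open in all 8 libraries, the median relative score was 1.02, 0.952, 1.02 and 1.06 on days 0, 4, 8 and 12. After 4, 8 and 12 days off it was 1.06, 1.17 (1.11 to 1.23) and 1.19 (1.14 to 1.25), and it was 1.02 in CD11b-high cells. At 12 days off the medians of the other autosomes ran from 0.886 to 1.12, so chromosome 4 lay above every one of them, as it did at 8 days off, where they ran from 0.919 to 1.09. Calls were also more frequent there at 12 days off, with 51.0% of chromosome 4 regions open against 45.7% of those elsewhere. At 4 days off the chromosome 4 median was 1.06, as on day 12. Open Pax5 and Bach2 regions, described next, rose from 5 to 9 between these times, or from 29.4% to 52.9%. Over all chromosome 4 regions the open share rose from 48.2% to 73.3%, and the list at 4 days off was the longest. The open Pax5 and Bach2 regions numbered 12 and 11 at 8 and 12 days off, where the chromosome 4 median was higher. The part of the chromosome and of list length in these counts was not tested. For that reason these regions are set against chromosome 4 and not against all regions.

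**Figure D2:**
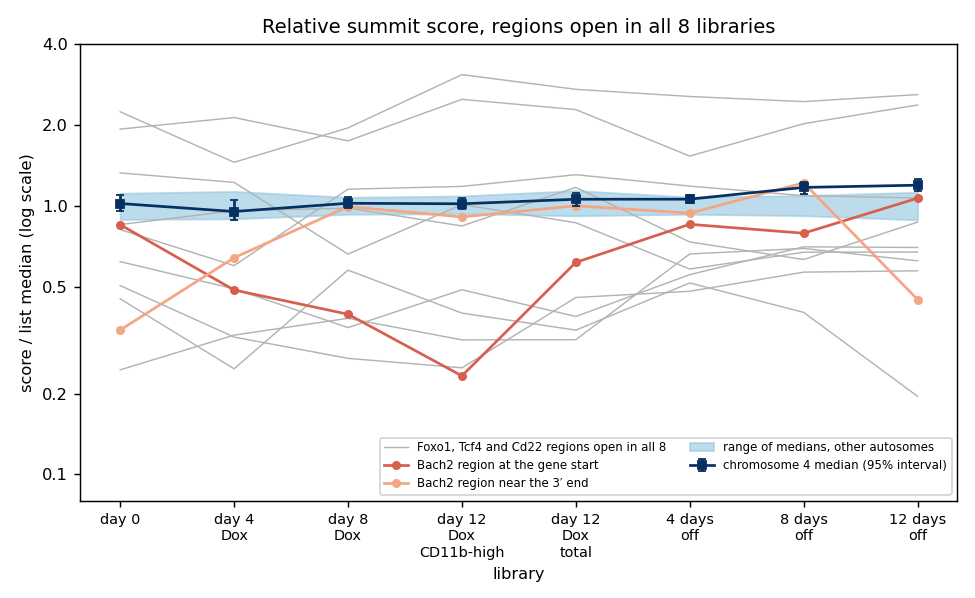
Relative score (log axis) by library for regions open in all 8. The chromosome 4 median (squares, 95% order-statistic interval) leaves the range of the other autosomes' medians (band) at 8 and 12 days off, the Bach2 region at the gene start is lowest in CD11b-high cells at 0.233, and that near the 3′ end is highest at 8 days off at 1.22.

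Fewer of the 17 Pax5 and Bach2 regions were open on Dox than before it or late after it. The number open was 13, 9, 5 and 5 on days 0, 4, 8 and 12, and then 9, 12 and 11 after 4, 8 and 12 days off. CD11b-high cells had 3 open, against 5 in total cells of day 12. As shares, 76.5% (50.1 to 93.2) were open at day 0, against 51.9% of chromosome 4 regions, and 29.4% (10.3 to 56.0) at day 8, against 63.3%. At day 4 it was 52.9% (27.8 to 77.0), against 49.0%. At day 12 the 29.4% stood against 48.2%, and in CD11b-high cells 17.6% (3.80 to 43.4) against 48.1%. After 4 days off it was 52.9% (27.8 to 77.0), against 73.3%. After 8 days off it was 70.6% (44.0 to 89.7), against 64.7% of chromosome 4, and after 12 days off 64.7% (38.3 to 85.8), against 51.0%. The members' interval lay clear of the chromosome's share at day 8 and in CD11b-high cells only. No region of either gene was open at day 12 and not at day 0, where 12.5% of chromosome 4 regions were, and 8 had a summit at day 0 but none at day 12, 47.1% (23.0 to 72.2) against 16.3%.

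Of these 17, 5 were lost on Dox, 29.4% (10.3 to 56.0) against 5.84% of chromosome 4 regions, and 0 were gained, against 4.18%. Of the 5 lost, 3 were open at each of 4, 8 and 12 days off, though not the same 3 (2 were open at all of these times), against 52.4%, 51.6% and 34.6% of the 254 lost regions of chromosome 4. With all lists at the length of the shortest, 1 region was lost at Bach2 and 1 at Pax5, so 3 fewer than with the lists as deposited, while 6 were then lost on other chromosomes, against 3 as deposited. The larger count at Pax5 and Bach2 therefore did not hold at equal list length. By relative score, 13 of the 17, 76.5% (50.1 to 93.2), had their highest value off Dox, 6 at 8 days and 7 at 12 days. Another 3 had it at day 0 and 1 at day 4. None had it at day 8, at day 12, in CD11b-high cells or at 4 days off. Over chromosome 4, 51.5% of regions had their highest value off Dox, a share within that interval. Only libraries with a call were ranked, so the 3 Bach2 regions called only off Dox could be highest nowhere else.

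**Figure D3:**
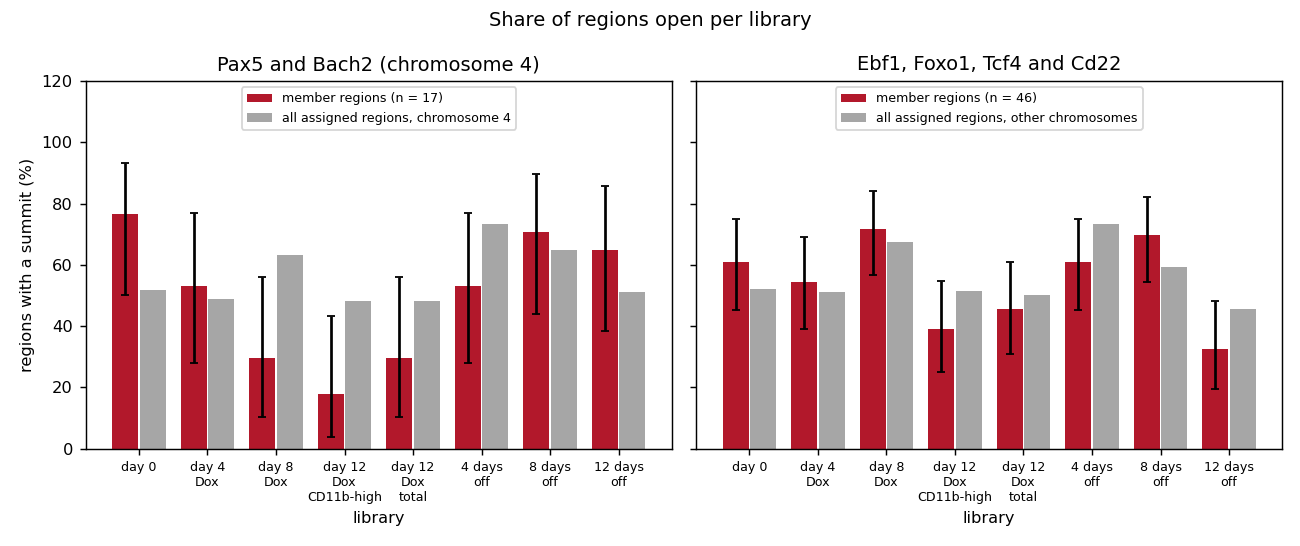
Percentage of regions with a summit in each library (bars, with 95% Clopper-Pearson intervals on the members) beside the assigned regions of chromosome 4 (left, grey) or of the other chromosomes (right, grey). At the left, Pax5 and Bach2 stand at 76.5% at day 0, 29.4% at day 8 and day 12 and 64.7% at 12 days off, and at the right the other genes stand at 60.9% at day 0 and 32.6% at 12 days off.

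Pax5 (chromosome 4, 44524748 to 44710694, minus strand) had 4 regions, all inside the gene and none near its start. The region nearest the start, at 44704334 to 44704760, lay 6147 bp inside it. It scored 5.94, 5.88 and 3.57 on days 0, 4 and 12, and then 15.4, 18.2 and 8.95 after 4, 8 and 12 days off, with no summit at day 8 and none in CD11b-high cells. Relative to the list medians it stood at 0.720 after 8 days off and 0.229 on day 12. That is a ratio of 3.14, larger than 98.7% of the 1737 chromosome 4 regions open in both libraries. It rests on a low day 12 call, at the 6.44th percentile of its list.

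The lost Pax5 region, at 44578618 to 44578929, scored 6.33 at day 0 and 5.03 at 12 days off and had no summit between. Another, at 44564581 to 44564926, scored 9.20, 5.23 and 5.22 on days 0, 4 and 8, had no summit at day 12, in CD11b-high cells or at 4 days off, and scored 6.60 and 7.96 at 8 and 12 days off. The remaining one, at 44669496 to 44669847, was called at day 0 and day 4 only, with 6.33 and 5.88. In CD11b-high cells none of the 4 Pax5 regions was called, against 1 in total cells of day 12. All scores at Pax5 up to day 12 were under 10, and only 1 region remained at a score of at least 10.

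Bach2 (chromosome 4, 32238413 to 32586109, plus strand) had 13 regions, of which 10 lay inside the gene. The region over the start of its span, at 32238283 to 32238884, was open in all 8 libraries. It scored 20.7, 13.2, 10.4 and 9.59 on days 0, 4, 8 and 12, and then 27.1, 19.98 and 17.96 after 4, 8 and 12 days off. In CD11b-high cells it scored 3.78, against 9.59 in total cells of day 12. Its relative score was 0.851, 0.486, 0.395 and 0.616 at day 0, 4, 8 and 12, and 0.853, 0.790 and 1.07 off Dox. In CD11b-high cells it was 0.233, so the region was called everywhere but stood lowest in the sorted cells. The ratio of CD11b-high to total cells was 0.378, and only 1.19% of the 1682 chromosome 4 regions open in both had a lower one. The RefSeq promoter window of Bach2 belongs to another start, at 32417435, which had no summit within 29277 bp.

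A region near the other end of the gene took another course. At 32575199 to 32575599, 10710 bp inside the 3′ end, it scored 8.39, 17.4, 26.2 and 15.6 on days 0, 4, 8 and 12, and then 29.8, 30.8 and 7.53 after 4, 8 and 12 days off. The CD11b-high cells gave a score of 14.8, against 15.6 in total cells of day 12. Its relative score at day 12 was 2.90 times that at day 0, above 93.9% of 1551 chromosome 4 regions. At 12 days off it was 0.448 times that at day 12, above only 5.14% of 1556. It was open in all 8 libraries and so was not gained. At a score of at least 10 it counted as gained, because its day 0 score of 8.39 fell under that limit.

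The 4 lost Bach2 regions lay at 32153432 to 32153732, 84831 bp before the gene, and inside it at 32289873 to 32290352, 32387969 to 32388308 and 32569956 to 32570328. The first was called at day 0 only, with 4.62. The second scored 3.05 before Dox and then 13.4, 10.1 and 9.48 after 4, 8 and 12 days off, with 3.25 in CD11b-high cells and no summit in total cells of day 12. Its relative score at 12 days off was 4.50 times that at day 0, above 99.3% of the 1799 chromosome 4 regions open in both. The day 0 call stood only at the 2.63rd percentile of its list. The third scored 3.78 at day 0 and 4.87, 11.04 and 5.95 off Dox. The fourth scored 10.0 before Dox and then 7.23 and 7.13 after 4 and 8 days off, with no summit after 12. No summit of day 4, 8 or 12 lay within 1 kb of any of the 4.

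The other Bach2 regions were called in differing sets of libraries. That at 32572159 to 32572487 scored 5.42 at day 0 and 10.1 at day 4, was not called at day 8, at day 12 or in CD11b-high cells, and scored 8.22 and 6.39 at 8 and 12 days off. Those at 32248302 to 32248635 and 32586625 to 32586965 were called at all 4 restoration times in total cells, with 5.52 and 6.82 at day 12, and were not called in CD11b-high cells. Open only off Dox were 3 regions, of which 32239233 to 32239685, 1046 bp inside the start, was called at all 3 times with 5.77, 3.09 and 4.46. The other 2, at 32179813 to 32180113 and 32551403 to 32551703, were called once each, with 3.29 at 12 days and 5.72 at 8 days. These 3 are 17.6% of the chromosome 4 members, against 18.7% of chromosome 4 regions open only off Dox. The remaining region, at 32564478 to 32564778, was called at day 4 alone with 2.86.

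**Figure D4:**
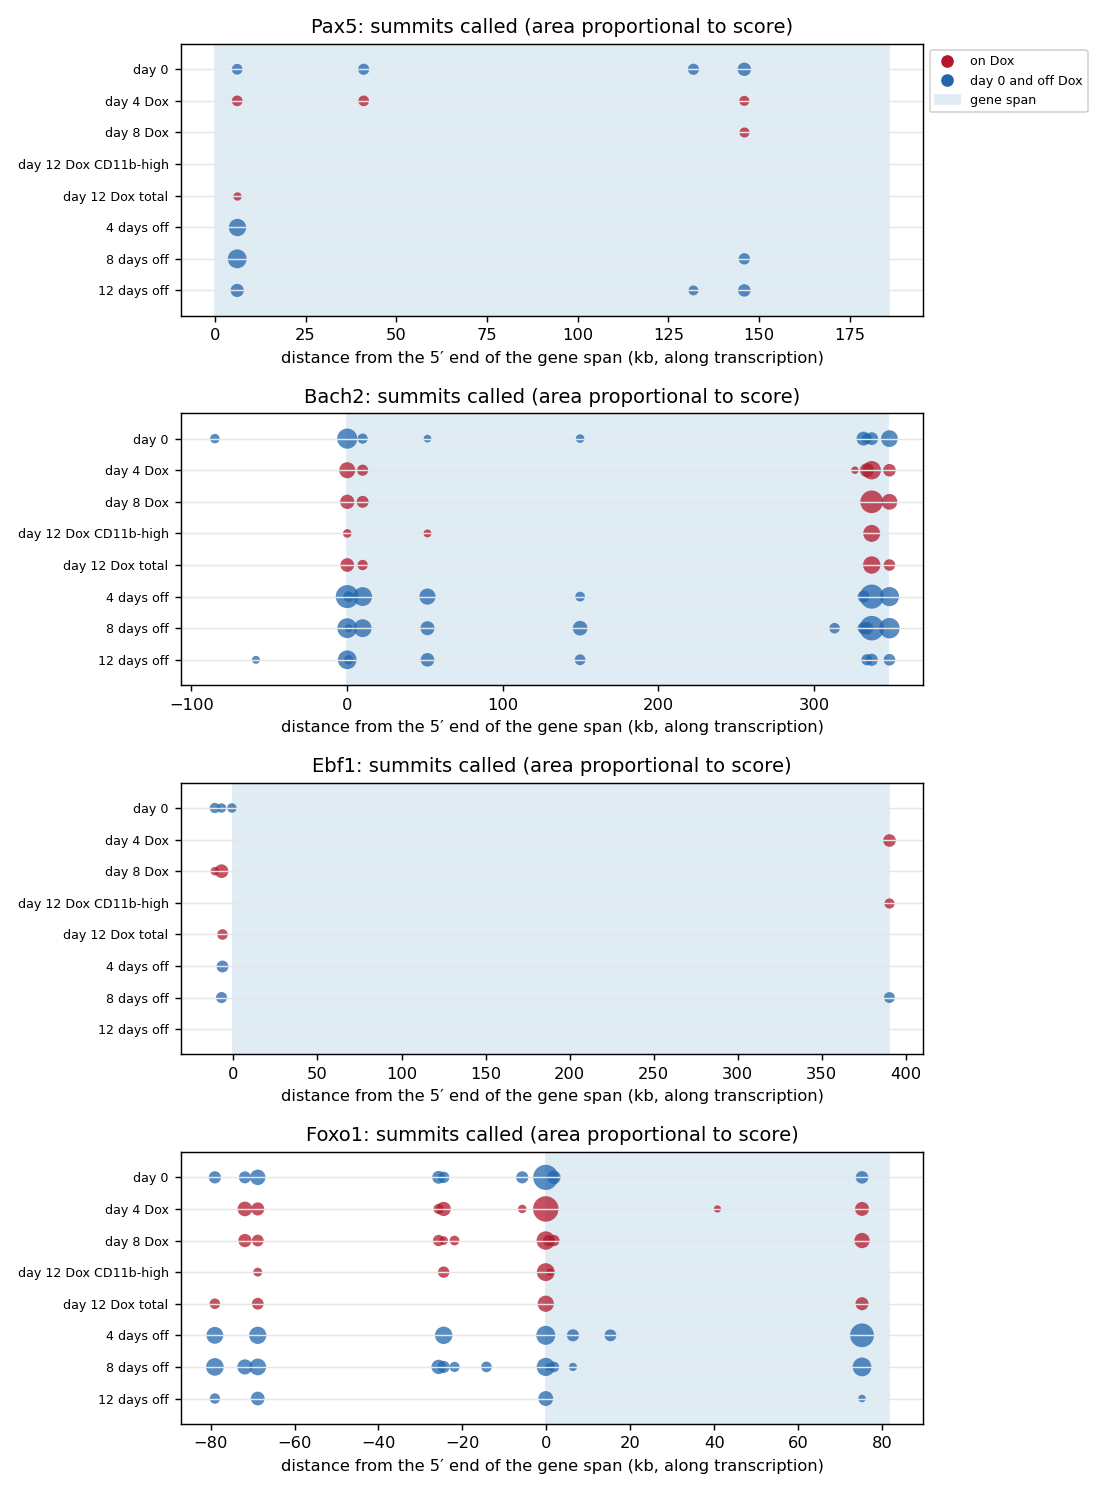
Summits called at Pax5, Bach2, Ebf1 and Foxo1 by distance from the 5′ end of the gene span (kb), 1 line per library, with dot area proportional to the score and the gene span shaded. The middle of Bach2 has no summit at day 4, 8 or 12 in total cells and has summits at day 0 and off Dox, and Ebf1 has no summit inside the gene.

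The 46 regions on other chromosomes are set against all assigned regions outside chromosome 4. The number open was 28, 25, 33 and 21 on days 0, 4, 8 and 12, and then 28, 32 and 15 after 4, 8 and 12 days off. CD11b-high cells had 18 open, against 21 in total cells of day 12. The share on day 12 was 45.7% (30.9 to 61.0), against 50.1% of regions on chromosomes other than 4, and on day 0 it was 60.9% (45.4 to 74.9), against 52.2%. In CD11b-high cells it was 39.1% (25.1 to 54.6), against 51.6%, and at 12 days off 32.6% (19.5 to 48.0), against 45.7%. Each of these intervals contains the background share. Open at day 0 and not at 12 days off were 14, 30.4% (17.7 to 45.8) against 13.3%, an interval above the background share. Lost were 3, 6.52% (1.37 to 17.9) against 5.46%, and gained 2, 4.35% (0.531 to 14.8) against 4.91%. The count of 3 lost was 6 with all lists at the length of the shortest, 5 without the day 8 library and 1 where no later restoration summit lay within 1 kb. Of the 3 lost regions, 1 and 2 were open after 4 and 8 days off, while 48.4% and 44.5% of lost regions on other chromosomes were, and 0 after 12 days off, against 24.8%. By relative score 17 of the 46 were highest off Dox, 37.0%, against 40.0% of all assigned regions. That background includes chromosome 4, where the share was 51.5%. Of these 17, 3 were called only off Dox and could be highest nowhere else.

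Ebf1 (chromosome 11, 44618100 to 45008096) had 4 regions, all outside the gene and none open in all 8 libraries. The nearest to its start, at 44617039 to 44617339 and 911 bp before it, was called at day 0 alone with 4.62, which counts as lost. The region at 44610903 to 44611235, 7031 bp before the gene, scored 4.51, 9.58 and 5.69 on days 0, 8 and 12, and then 7.23 and 6.29 after 4 and 8 days off. That at 44606945 to 44607258 was called at day 0 and day 8, with 5.46 and 3.70. Beyond the gene's other end, 206 bp away, 45008138 to 45008466 scored 8.15 at day 4 and 6.11 at 8 days off. It scored 5.27 in CD11b-high cells and had no summit in total cells of day 12. At 12 days off no Ebf1 region was called, and at a score of at least 10 none was in any library.

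Foxo1 (chromosome 3, 52268337 to 52350109), a forkhead factor held back by phosphoinositide 3-kinase signalling, had 16 regions, 0 of them gained and 0 lost. This changed with the processing, to 2 lost at equal list length, 1 lost at a score of at least 10, 1 lost without any one of the day 4, day 8 or day 12 libraries, and 1 gained with summits extended by 75 bp. Its promoter region, at 52267880 to 52268533, covers the sequence printed above and scored 32.2, 33.1, 17.4 and 13.5 on days 0, 4, 8 and 12, and then 18.5, 17.0 and 11.3 after 4, 8 and 12 days off. In CD11b-high cells it scored 16.4, against 13.5 in total cells of day 12. The relative score was 0.673 after 12 days off and 1.33 on day 0, a ratio of 0.507 that was above only 3.81% of the 1234 chromosome 3 regions open in both. The highest relative scores of the promoter were those of day 0 and day 4, and no later library came back to them.

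Upstream of Foxo1, the region at 52199327 to 52199815, 68766 bp before the gene, was also open in all 8, with scores of 4.05 to 15.3. Near the gene's 3′ end, 52343246 to 52343903 scored 8.04, 9.97, 11.9 and 8.72 on days 0, 4, 8 and 12, and then 28.9, 17.98 and 2.87 after 4, 8 and 12 days off, with no summit in CD11b-high cells. Its relative score at 12 days off was 0.304 times that at day 12, above only 2.20% of 1090 chromosome 3 regions. Foxo1 had 9, 8, 9 and 4 regions open on days 0, 4, 8 and 12, and 7, 12 and 4 off Dox. CD11b-high cells had 4 open, as many as total cells of day 12, with 2 regions called in each library alone. The 3 regions open only off Dox, at 52253927 to 52254227, 52274532 to 52274833 and 52283470 to 52283770, were called at 4 or 8 days only, with scores of 3.48 to 7.56.

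Tcf4 (chromosome 18, 69343429 to 69687967), an E protein, had 23 regions and the highest scores of all 8 genes. The region at 69469333 to 69469733, deep inside the gene, scored 54.4, 39.4, 51.5 and 42.2 on days 0, 4, 8 and 12, and then 81.0, 61.7 and 43.6 after 4, 8 and 12 days off. The CD11b-high cells gave a score of 49.9996, against 42.2 in total cells of day 12. The region at 69344257 to 69344641, 1020 bp inside the gene's lower-coordinate end, scored 35.5 to 57.8 over the 8 libraries. In relative terms both stood above the list median everywhere, at 1.45 to 3.08 and 1.53 to 2.49. Of the 23 regions, 6 were open in all 8 libraries and 9 at all 4 restoration times, and 14, 14, 20 and 15 were open at day 0, 4, 8 and 12.

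Both gained regions of the B-lineage genes were at Tcf4, outside or inside the gene. The first, at 69770264 to 69770894 and 82612 bp beyond the gene, scored 2.86, 13.7 and 6.57 on days 4, 8 and 12, and then 17.7 after 4 days off, with no summit at 8 or 12 days off. In CD11b-high cells it scored 17.3, against 6.57 in total cells, a ratio of relative scores of 2.51 that was above 98.2% of 792 chromosome 18 regions. It was open on Dox and at 4 days off only, and it is not assigned to Tcf4 under a 50 kb limit. The second, at 69613765 to 69614241, scored 6.38, 4.22 and 4.596 on days 4, 8 and 12, and then 9.76, 9.07 and 8.09 after 4, 8 and 12 days off. It was not called in CD11b-high cells. It adjoins the lost region at 69614299 to 69614609, which scored 7.70 before Dox and then 14.6 and 7.91 after 4 and 8 days off, and their nearest summits of opposite state lay 366 bp apart. With summits extended by 250 bp the 2 merged, and neither was gained or lost.

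The neighbour at 69782008 to 69782471 had no summit at day 4 but was otherwise called throughout. It scored 9.12, 14.4 and 10.4 on days 0, 8 and 12, and then 40.0, 15.6 and 4.14 after 4, 8 and 12 days off. CD11b-high cells gave 15.5, against 10.4 in total cells of day 12. Its relative score at 4 days off was 1.88 times that at day 12, above 93.8% of 832 chromosome 18 regions, and at 12 days off 0.367 times, above only 4.33% of 647.

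Of the B-cell receptor genes, Cd79a (chromosome 7, 24897497 to 24901858) and Cd79b (chromosome 11, 106311341 to 106314562) had no region in any library. The nearest region to Cd79a, at 24902749 to 24903325, lay 1179 bp beyond its end and was assigned to Arhgef1. It was open in 7 libraries, with scores of 5.98 to 17.7. The nearest to Cd79b, 4396 bp away, was assigned to Scn4a and called at day 8 alone with 4.39. Cd22 (chromosome 7, 30865404 to 30880342, minus strand) had 3 regions. That at 30887582 to 30888109, 7503 bp upstream, was open in all 8 and scored 5.96, 8.95, 10.1 and 4.94 on days 0, 4, 8 and 12, and then 21.0, 17.5 and 10.5 after 4, 8 and 12 days off. The CD11b-high cells gave a score of 5.15, against 4.94 in total cells of day 12. Its relative score was 0.245 to 0.381 before and on Dox and 0.624 to 0.694 off Dox, without overlap. The lost one, at 30886883 to 30887190, scored 5.25 at day 0 and 6.09 at 8 days off and was otherwise not called, and the one inside the gene was called at day 4, day 8, 4 and 8 days off.

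CD11b-high cells and total cells of day 12 differed at 15 of the 63 regions, with 5 open in CD11b-high cells alone and 10 in total cells alone. These are 7.94% (2.63 to 17.6) against 10.5% of all assigned regions, and 15.9% (7.88 to 27.3) against 9.15%. Both intervals contain the background. In CD11b-high cells 21 of the 63 were open, 33.3% (22.0 to 46.3) against 51.3% of assigned regions, an interval below that share. In total cells of day 12 it was 41.3% (29.0 to 54.4) against 49.9%. At Pax5 and Bach2 the counts were 1 and 3 of 17, where 9.49% and 9.53% of chromosome 4 regions differed in these ways. The 10 lay at Tcf4 (4), Bach2 and Foxo1 (2 each), and Pax5 and Ebf1 (1 each). All of the 10 scored under 10 in total cells.

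A wider list of 40 B-lineage genes, with these 8 left out, was read the same way; it was chosen with earlier results of these data known. Of its genes, 36 had regions, 189 in all, of which 19 were gained and 11 lost. These are 10.1% and 5.82%, against 4.86% and 5.49% of all assigned regions. The lost share was close to that of all regions, and no interval was computed for either share. Of the genes named next, Lyn and Cd72 lie on chromosome 4 and were not counted apart. Gained regions lay at 13 genes. Syk, a kinase of the B-cell receptor and of myeloid Fc receptors, had 4, and Lyn (a Src-family kinase of the same receptors), the inhibitory receptor gene Cd72 and the transcription factor gene Mef2c had 2 each. There was 1 each at Dntt (terminal transferase), Pou2f2 (Oct-2), Ikzf1 (Ikaros), Irf8, Bcl6, Bcl11a, Prdm1 (Blimp-1), Fcrla and Erg. Lost regions lay at 8 genes, 2 each at Ikzf1, Prdm1 and Cd24a and 1 each at Pou2f2, Irf8, Xbp1, Lyn and Erg. Counting only lost regions with no later restoration summit within 1 kb, Xbp1 and Lyn had 0 and Cd24a had 1. Several of the genes with a gained or lost region, such as Syk, Lyn, Irf8 and Ikzf1, are also used by myeloid cells. Of the 11 lost regions 3 were open at 12 days off, 2 at Prdm1 and 1 at Ikzf1, while 25.5% of all lost assigned regions were.

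Marker lists of cell types were counted in the same way. The myeloid list held 65 regions, 32 to 50 of them open per library, where 46.0% to 73.3% of all assigned regions were open. The PU.1 gene Spi1 and the C/EBP genes Cebpa and Cebpb each had a region open in all 8. Of the other myeloid genes, Elane had no region, Mpo had none open at day 0 or at 12 days off, and Csf1r and Csf3r had none open in all 8. The B-cell list of 10 genes, which contains 5 of the genes described here, held 18 regions, with 13, 8, 10 and 7 open at day 0, 4, 8 and 12, and 10, 11 and 7 off Dox. It had 5 open in CD11b-high cells, against 7 in total cells of day 12. Of its genes, Cd79a, Cd79b, Ms4a1 (CD20) and Vpreb1 had no region in any library. Igll1, Blnk and Cd22 each had 1 region open in all 8. That makes 3 of the 18 B-cell regions, beside 18 of the 65 myeloid, 8 of the 31 T-cell and 3 of the 10 erythroid regions. Of all assigned regions 27.9% were open in all 8. The myeloid share was close to that, so these counts do not tell the cell type. The T-cell list held 31 regions with 12 to 27 open and included Lck with 2 and Tcf7 with 4 open in all 8, and the erythroid list 10 with 3 to 8 open.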

How the data were processed

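Per the labels, ATAC-seq libraries were made from 50000 sorted cells each with the Nextera kit; their extraction text also names ChIP. Per the submitters' processing notes, Picard 2.14.0 and MACS2 were used on build mm10; the aligner, the MACS2 version and the depth are absent from those notes. The authors deposited 1 score per summit, taken here for −log10 of its p-value or its q-value, since the lowest in each list was 1.30 to 1.39. Which of these it is was not stated.

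Each summit outside unplaced contigs was widened 150 bp both ways, and overlapping windows were merged. A region took its highest score in a library. By its midpoint it went with the closest protein-coding span of the RefSeq table (21887 genes, GRCm38.p6) within 100 kb, and where spans overlap with the gene whose end was nearer. Motifs were searched on both strands. The state rules were tested on simulated lists. With 1 library per group no test was made. The members and gene lists were chosen with earlier results of these data known. All 8 genes are named, with each region gained, lost or open only off Dox, and each gene of the wider list with a gained or lost region. Alternatives were the score limit, list length, extension, distance, overlapping spans, summits nearby and, chosen after seeing the data, leaving out 1 restoration library. Python 3.11.15, pandas 2.3.3 and scipy 1.17.1 were used.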

Additional observations from a re-analysis of the deposited data

How the results depend on the processing

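The number of lost regions, 8, was between 6 and 11 under the alternatives other than the score limit of 10, where it was 3. Of those 3, the regions at Foxo1 and Tcf4 were not among the 8. An equal total need not be the same regions: as deposited 5 lay on chromosome 4 and 3 elsewhere, and at equal list length 2 and 6. Gained regions numbered 2, and 0 with equal list length. There was 1, at Tcf4, with summits extended by 250 bp, with a gene within 50 kb, or with no summit of day 0 within 1 kb. At a score of at least 10 there was also 1, but at Bach2, and neither Tcf4 region was then gained. Regions open at day 0, 4, 8 and 12 numbered 17, and 5 at a score of at least 10. Lost regions open at 12 days off numbered 3, with 0 at a score of at least 10 and 1 with equal list length. Regions open in CD11b-high and not in total cells numbered 5, with 1 at a score of at least 10 and 3 with equal list length, and those open in total and not in CD11b-high cells 10, with 0 at that score. The 6 regions open only off Dox stayed between 4 and 8. Leaving out the day 4, day 8 or day 12 library, chosen after seeing the data, gave 11, 10 and 9 lost and 3, 2 and 3 gained regions. The chromosome 4 relative score at 12 days off, 1.19, was 1.13 more than 1 kb from gene ends and 1.14 at a score of at least 10, and as a percentile rank it was 58.5. The cause of these differences was not tested. No paired analysis was possible because each group held 1 library. Most calls near these genes scored low, so presence or absence of a single summit is the limit of most values.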

Other observations

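Several regions of these genes were called at day 8 alone. All 3 were inside Tcf4, at chromosome 18, 69396293 to 69396593, 69555014 to 69555314 and 69588486 to 69588786, with scores of 11.9, 2.59 and 8.81. The region at 69586060 to 69586392 was called in CD11b-high cells with 7.40 and at day 8 with 4.88, and in no other library. At Foxo1, 52308967 to 52309267 on chromosome 3 was called at day 4 alone with 2.65, and 52269048 to 52269348 in CD11b-high cells alone with 2.86. These values are given without a comparison.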
